A study of Branchiostoma belcheri with 2 samples.

Results

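This account covers miR-210 in the gill of *Branchiostoma belcheri*, an amphioxus of Chinese coasts and so an invertebrate relative of the vertebrates, measured on microRNA (miRNA) microarrays. Every probe whose name after the species prefix is miR-210, with any letter or arm suffix, was taken. That gave 9 of the 1686 miRNA probes on the array, from 6 of its 11 species. These species were *B. belcheri* (prefix bbe), the Florida amphioxus *B. floridae* (bfl), zebrafish (dre), sea lamprey (pma), a sea urchin (spu) and an acorn worm (sko). Each group had 1 array. Per the labels, adult animals received 15 µl into the body cavity. The LPS animals were given lipopolysaccharide, a surface lipid of Gram-negative bacteria, at 1 mg/ml in PBS, and the controls were given PBS alone. Gills for the LPS array were taken at 12 h, whereas no time is labelled for the controls. After injection the animals were kept at 25 °C, and how many contributed to an array is not stated.

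miRNAs are short RNAs that guide a silencing complex to messenger RNAs, mostly through pairing of the seed (bases 2 to 8). A hairpin precursor gives rise to 2 strands, named 5p and 3p after the arm they come from, and one of them is usually much more abundant. In vertebrates miR-210 is known as a miRNA induced in low oxygen by the hypoxia-inducible factor HIF, and it lowers proteins of mitochondrial respiration such as the iron-sulphur cluster assembly protein ISCU. The amphioxus gill is a perforated, ciliated pharynx that filters food and exchanges gas. Whether miR-210 responds to oxygen in amphioxus was not measured here.

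The 5 probes for the 3p strand are shown first, because the results below are grouped by their few sequence differences. The lamprey and sea urchin probes have no arm in their names and are placed here by sequence. Target sequences are as deposited, with the seed in capitals.
bfl-miR-210-3p: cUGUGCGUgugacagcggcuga
dre-miR-210-3p: cUGUGCGUgugacagcggcuaa
pma-miR-210: gUGUGCGUgugacagcggcugu
sko-miR-210-3p: uUGUGCGUgcgacagcgacuuc
spu-miR-210: uUGUGCGUgcgacagcgacuga
All 5 share the same seed, and 17 of 22 positions are identical in all of them. No other probe on the array had a seed of any miR-210 probe, and none lay within 6 edits of one on either strand (the closest was 7 edits away). Counted from the 5′ end, the zebrafish target differs from the *B. floridae* one by G21A alone, and the lamprey target by C1G and A22U. The acorn worm and sea urchin targets both carry C1U, U10C and G18A relative to *B. floridae*, and the acorn worm target also carries G21U and A22C.

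The remaining 4 targets belong to the other strand of the hairpin and are shown because one of them goes against its name.
bfl-miR-210-5p: cGCCUCUGuuucgcgcgcaaga
bbe-miR-210-3p: cGCCUCUGuuucgcgcgcaag
dre-miR-210-5p: aGCCACUGacuaacgcacauug
sko-miR-210-5p: aGUUGCCGgagcauugcacaaca
The *B. belcheri* target, named 3p, is identical to the first 21 bases of the 22-base *B. floridae* 5p target. It lies 1 edit from that target and 12 edits from bfl-miR-210-3p. Folded against bfl-miR-210-3p with RNAduplex, it was predicted to form 16 base pairs, as was bfl-miR-210-5p. By sequence it is therefore treated below as a second probe for the 5p strand. The array thus carries no *B. belcheri* target for the strand that bears the common seed, and the sources used here do not give the exact 3p sequence of the species measured. Among 22 pairs of *B. belcheri* and *B. floridae* probes of 1 miRNA number whose targets lie within 2 edits, 4 carried opposite arm names, and miR-210 was one of these. Those pairs were counted after the case of miR-210 had been noticed.

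Per the file headers, the value of a spot is its median Cy3 intensity on a linear scale, and each probe has 2 repeat spots. Detection required a mean intensity over the 95th percentile of the empty spots, or 121.9 for the control array and 143.5 for the LPS array. On that rule 648 probes were detected on the control array, 339 on the LPS array and 684 on at least 1. Signals were background-corrected, log2-transformed and quantile-normalized, a step that gives both arrays the same distribution of values. To be counted as higher or lower after LPS, a detected probe had to differ at least 2-fold in normalized signal, with no overlap between the repeat spots of one array and those of the other. With 1 array per group there is no test between groups, and the SE given beside each log2 difference (LPS minus control) covers only the spread of repeat spots. Treatment and array cannot be told apart. Probe lists for tissues were checked against the gill label on the amphioxus probes. For ciliated cells (miR-34, miR-449), 10 of 11 were detected in the control and 8 of 11 after LPS. The epithelial miR-200 family had 6 of 6 and 5 of 6, neurons (miR-124, miR-9) 2 of 3 on both, and muscle (miR-1, miR-133) 1 of 3 and 0 of 3. Over all 260 amphioxus probes, 204 were detected on at least 1 array, so counts from such short lists do not identify the tissue. Where signal differs in such whole-tissue RNA, fewer cells of a type and less RNA per cell cannot be told apart.

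Of the 9 miR-210 probes, 7 were detected, all on both arrays. After quantile normalization 3 of the 7 were counted as higher on the LPS array, none as lower, and 4 did not pass. Over all 684 detected probes, 10.5% were counted as higher and 10.5% as lower. Among the 303 detected on both arrays, as all 7 miR-210 probes were, 19.5% were counted as higher and 13.9% as lower. The median log2 difference of the detected miR-210 probes was 0.87, beside 0.27 for the probes detected on both arrays, -0.10 for all detected probes and 0.18 for the detected amphioxus ones. These 7 probes are not 7 measurements, since those of 1 strand are near copies of each other and can bind the same RNA.

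**Figure D1:**
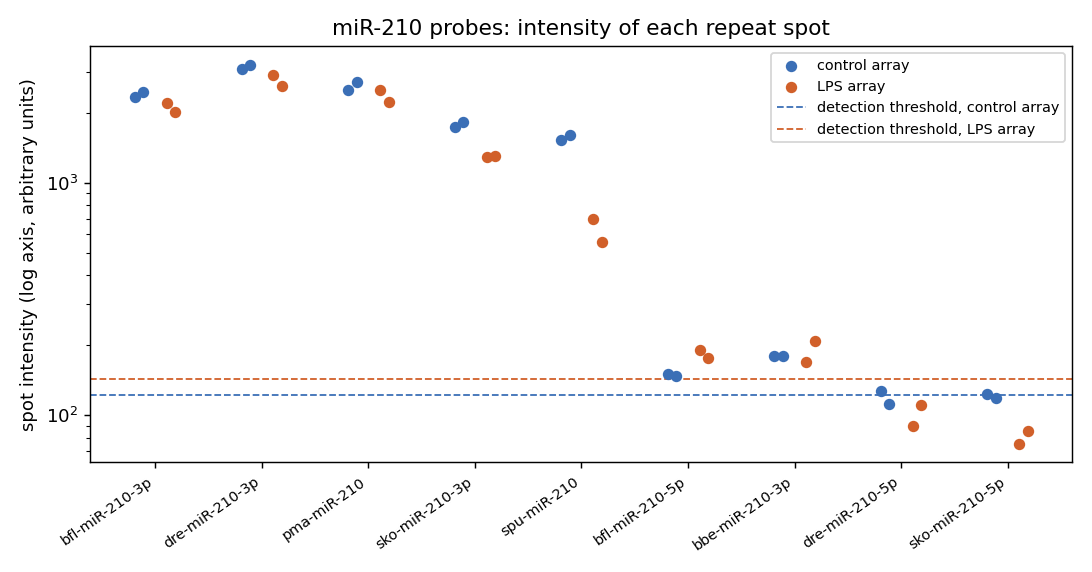
Intensity of each repeat spot (log axis, arbitrary units) of the 9 miR-210 probes on the control and LPS arrays, with the detection threshold of each array as a dashed line. The 5 probes for the 3p strand lie between 556.4 and 3206, while the 4 probes for the 5p strand lie near the thresholds. The LPS spots are dimmer than the control spots for all 5 of the 3p probes, most of all for spu-miR-210 (556.4 and 699.9 against 1519 and 1595).

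The *B. floridae*, zebrafish and lamprey 3p probes gave almost the same result. The spots of bfl-miR-210-3p had intensities of 2327 and 2457 on the control array and 2188 and 2002 on the LPS array. Those of dre-miR-210-3p read 3074 and 3206 on the control array and 2894 and 2599 on the LPS array. For pma-miR-210 they were 2511 and 2693, then 2493 and 2215. In the intensities as deposited, whose common scale was not tested, all 3 probes were thus slightly dimmer on the LPS array. They stood at 87.6%, 87.5% and 90.5% of the control intensity, with no overlap between control and LPS spots for any of them.

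Quantile normalization turned this order around. The normalized log2 signal of bfl-miR-210-3p was 10.47 and 10.60 on the control array and 11.93 and 11.80 on the LPS array, a 2.51-fold higher signal (log2 difference 1.33 ± 0.09). pma-miR-210 stood 2.48-fold higher (1.31 ± 0.08) and dre-miR-210-3p 2.35-fold higher (1.23 ± 0.07). The 3 log2 differences spanned 0.10. Ranked from the highest of 684 detected probes, they took places 39, 43 and 51. Among the 303 probes detected on both arrays, they took places 31, 33 and 38. The normalization itself added 1.503 to the log2 difference of bfl-miR-210-3p, 1.44 to that of pma-miR-210 and 1.41 to that of dre-miR-210-3p. Quantile normalization works on ranks: by intensity, bfl-miR-210-3p held place 136 of 1686 on the control array and place 109 on the LPS array. Places by intensity do not change when an array is scaled by a constant, but they also reflect which other probes lost signal.

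Under other normalizations the 3 probes moved together. With no normalization between the arrays, bfl-miR-210-3p was at -0.18, dre-miR-210-3p at -0.18 and pma-miR-210 at -0.13. All detected probes had a median of -0.18 in that setting, and these 3 held places 341, 346 and 319 of 684, the middle of the list. Against the 303 probes detected on both arrays, whose median was -0.40, bfl-miR-210-3p held place 121. Scaling to the array median placed the 3 probes between 0.94 and 0.99, beside a median of 0.94 for all detected probes. Scaling on the maker's calibration spots placed them between 0.70 and 0.75, beside a median of 0.70. Both scalings move all probes by a constant, so the 3 kept places 341, 346 and 319 of 684. With loess, which follows the trend of the difference along signal strength, they lay between 0.29 and 0.37, beside a median of -0.17 for all detected probes. None of the 3 reached 2-fold in any of these 4 settings. These 3 probes were thus below 0 with no normalization and above 0 with quantile normalization, median scaling, calibration spots and loess. The size of the difference and the place among detected probes depended on the setting. Under a constant scaling the sign follows the constant, since the 3 probes lay near the median of all detected probes.

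**Figure D2:**
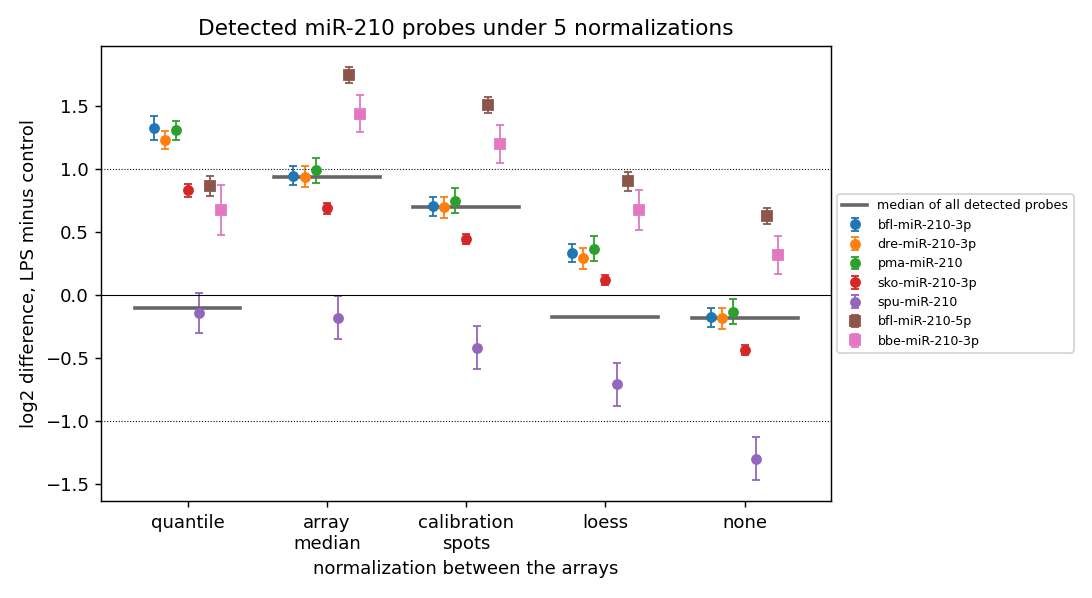
Log2 difference (LPS minus control) of the 7 detected miR-210 probes under 5 normalizations, with bars for the SE over repeat spots, dotted lines at 2-fold and grey lines for the median of all detected probes. The bfl, dre and pma 3p probes stay together and run from about 1.3 with quantile normalization to just below 0 with none, spu-miR-210 is lowest throughout, and the 5p probes (squares) are above 0 in all 5.

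The sea urchin and acorn worm probes, which differ from *B. floridae* inside the molecule, stood lower than the other 3p probes. spu-miR-210 had spot intensities of 1519 and 1595 on the control array and 699.9 and 556.4 on the LPS array, which is 40.3% of the control intensity. Its log2 difference was -0.14 ± 0.16 after quantile normalization and -1.30 with none. With none it was counted as lower, as were 128 of all 684 detected probes, and was the sole miR-210 probe past 2-fold. By intensity it went from place 162 on the control array to place 170 on the LPS array, while sko-miR-210-3p went from 154 to 126. sko-miR-210-3p had spots of 1725 and 1819 on the control array and 1282 and 1304 on the LPS array, or 73.0%. Its log2 difference was 0.83 ± 0.05 after quantile normalization, just under the 2-fold threshold, and -0.43 with none.

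The gap between these probes and the rest of the 3p group was less tied to the scaling than the differences themselves. Relative to the mean of the bfl, dre and pma probes, the log2 difference of spu-miR-210 was lower by 1.43 ± 0.17 (SE over repeat spots). That gap was -1.14 with no normalization, which equals its value under both constant scalings by construction, and -1.04 with loess. For sko-miR-210-3p the gap was smaller, -0.46 ± 0.07 in the quantile setting, -0.27 with none and -0.21 with loess. The 2 probes differ from each other at G21U and A22C alone, yet spu-miR-210 stood 0.97 ± 0.17 log2 units below sko-miR-210-3p. Relative to *B. floridae*, the sea urchin target has 3 substitutions and the acorn worm target has 5. Similarity to the *B. belcheri* strand could not be counted, because its sequence is not given, and a part of sequence in these gaps was not tested. Repeat spots of spu-miR-210 lay 0.31 log2 units apart on the LPS array, against 0.06 for sko-miR-210-3p.

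Signal on the maker's calibration spots also differed between the arrays. Spots with names in 3M are read here as mismatched partners of those in 3P, a reading the sources used here do not spell out. Among 19 such pairs with both members above the control threshold, the 3M spots carried a median of 10.8% of the signal of their 3P partner in the control scan and 1.68% in the LPS scan. In 18 of 19 pairs the LPS share was the lower one, and the demand for signal on the control array favours that direction. Its part in the gap between the 3p probes was not tested.

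**Figure D3:**
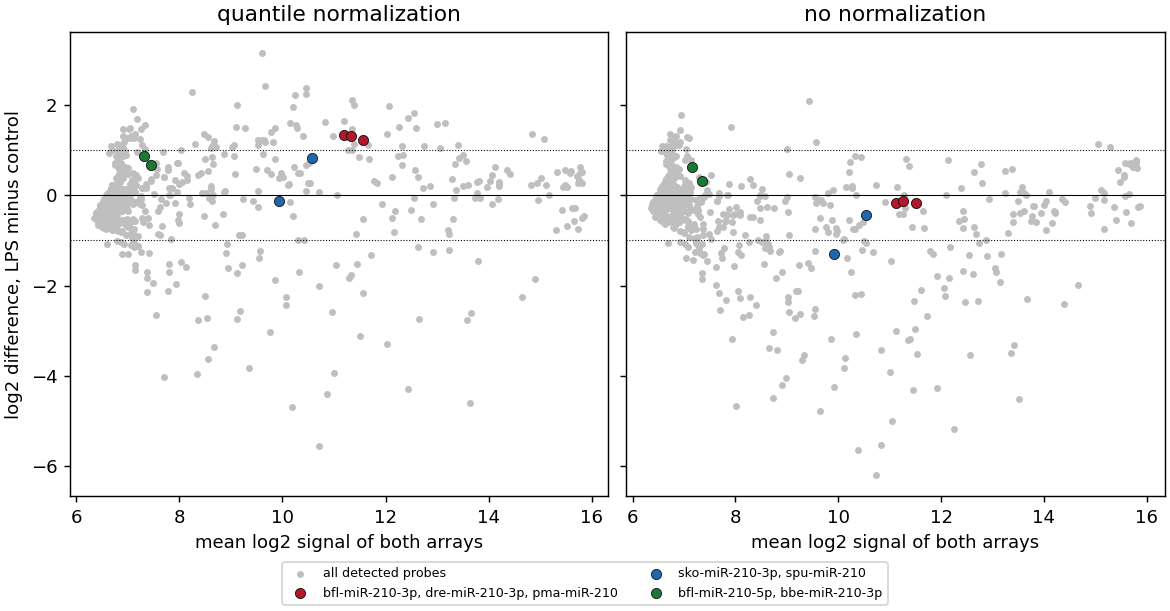
Log2 difference against mean log2 signal for the 684 detected probes (grey), with quantile normalization (left) and with none (right), dotted lines marking 2-fold. The bfl, dre and pma 3p probes (red) lie above the upper dotted line on the left and just below 0 on the right, and the 5p probes (green) are above 0 in both panels.

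Probes for the 5p strand were dim on both arrays, and the 2 that were detected, bfl-miR-210-5p and bbe-miR-210-3p, were not counted as higher or lower in the quantile setting. bfl-miR-210-5p had spot intensities of 149.6 and 146.7 on the control array and 190.9 and 175.5 on the LPS array. Without any scaling, its LPS spots lay above its control spots. bbe-miR-210-3p, the near copy of the same target, read 179.7 and 179.0 on the control array and 169.9 and 207.4 on the LPS array, so its raw spots overlapped. After quantile normalization bfl-miR-210-5p was at 0.87 ± 0.08 and bbe-miR-210-3p at 0.68 ± 0.20, neither of them past 2-fold. With no normalization they were at 0.63 and 0.32, and with loess at 0.90 and 0.68. Both were counted as higher when the arrays were scaled to their medians (1.75 and 1.44) or to the calibration spots (1.51 and 1.20), settings that move all probes by a constant. Of the 684 detected probes, 314 were counted as higher with median scaling and 177 with calibration spots, against 72 in the quantile setting. With a normexp offset of 16 in place of 50, 82 of the 684 were counted as higher. bfl-miR-210-5p was among these at 1.10, and bbe-miR-210-3p was at 0.84 and not counted. They differed from each other by -0.19 ± 0.21 in the quantile setting, less than the spread of repeat spots.

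Background moved in the other direction around these spots. The 8 nearest empty spots had a median of 112.1 and 109.9 around the bfl-miR-210-5p spots on the control array and 95.7 and 104.4 on the LPS array. Above this local level, bfl-miR-210-5p had 37.5 and 36.8 on the control array and 95.2 and 71.1 on the LPS array. bbe-miR-210-3p had 68.4 and 60.7, then 84.7 and 102.9. Spots of the LPS array exceeded those of the control array for both probes on this measure, with no overlap. With the local level as background, an alternative chosen after seeing the data, 84 of the 684 detected probes were counted as higher. bfl-miR-210-5p was among these at 1.10, and bbe-miR-210-3p was at 0.92 and not counted. The lower background of the LPS array is part of that change, and empty spots varied more there (SD 30.5 against 10.6). With a stricter limit of detection, the mean of the empty spots plus 3 SD (139.2 and 196.6), both probes passed on the control array but not on the LPS array.

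In relation to each other, the strands had no settled order of response. bfl-miR-210-5p was 0.46 ± 0.12 below bfl-miR-210-3p after quantile normalization, but 0.80 above it with none and 0.57 above it with loess. The other 5p probes gave no usable signal. dre-miR-210-5p read 127.1 and 111.6 on the control array and 89.8 and 110.9 on the LPS array, and sko-miR-210-5p read 123.8 and 118.2, then 75.5 and 85.5. Neither mean exceeded the threshold of either array, although 1 control spot of each did. Their targets lie 10 and 13 edits from the *B. floridae* 5p target.

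The authors' deposited table of 1 processed intensity per probe gave higher values on the LPS array for all 7 detected miR-210 probes. How many of all detected probes were higher there by any amount was not counted. At 2-fold, 6 miR-210 probes were higher after adding 1, beside 161 higher and 289 lower over all probes. After adding 50, 5 were higher, beside 111 higher and 82 lower over all probes. In it bfl-miR-210-3p had 775.3 for the control and 2554 for LPS, pma-miR-210 had 899.9 and 2900, and dre-miR-210-3p had 1242 and 3157. The 5p probes bfl-miR-210-5p (18.6 and 104.5) and bbe-miR-210-3p (39.2 and 121.6) were also higher in the authors' deposited table. sko-miR-210-3p had 609.6 and 1564 there, and spu-miR-210 had 565.7 and 715.0, the smallest ratio of the 7 (1.26). The labels and headers do not say how that table was scaled.

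Probes of other names with the most similar normalized signal over the 2 arrays were sought for bfl-miR-210-3p by Euclidean distance in log2 units. The nearest 3 were bfl-miR-34b-5p (distance 0.22), the tunicate probe odi-miR-1493 (0.24) and bbe-miR-4869-5p (0.25), and the next amphioxus probe was bbe-miR-4856a-5p (0.31). Their log2 differences were 1.64 ± 0.18, 1.46 ± 0.26, 1.00 ± 0.35 and 0.99 ± 0.17. With no normalization they were at 0.19, 0.00, -0.42 and -0.43. Their targets lie 11 to 14 edits from that of bfl-miR-210-3p. Likeness over 2 arrays is a weak measure, since any probe of the same intensity in both scans would score as high.

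Other miRNAs linked to hypoxia in vertebrates gave little signal. A list of 9 families (miR-21, miR-23, miR-24, miR-26, miR-27, miR-103, miR-107, miR-181 and miR-199) had 48 probes, none of them for amphioxus. Of these, 10 were detected, each on a single array (6 on the control and 4 on the LPS array). Over all 1686 miRNA probes, 684 were detected on at least 1 array and 303 on both. None of the 10 had a mean intensity over repeat spots above 242.8. Their median log2 difference was 0.02. Of the 10, 1 was counted as higher and none as lower, beside 10.5% each way over all 684 detected probes. The other 9 did not pass the threshold. The 1 counted was the lamprey probe pma-miR-26a-1-3p, with spots of 118.0 and 122.9 on the control array and 350.7 and 134.8 on the LPS array (1.56 ± 1.05). Only the first of its LPS spots lay above the LPS threshold. The nearest amphioxus targets of the 10 detected probes were 8 to 10 edits away, so which RNA gave their signal is not known.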

How the data were processed

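Total RNA (2 to 5 µg, per the labels' protocols) was given a poly(A) tail and a Cy3 tag and hybridised to 1 array per group. The authors deposited scanner files with the median spot intensity on a linear scale, per the file headers, and a table with 1 processed intensity per probe, made by steps that the labels and headers do not describe. The spot intensities were background-corrected on all 3968 spots (limma 3.58.1, R 4.3.3, normexp, offset 50), converted to log2, quantile-normalized over the 3372 miRNA spots and averaged over 2 repeat spots. The procedure was checked beforehand on a simulated second array, made from the control array by constant scaling, added noise and as many raised as lowered probes. That check does not cover a difference between arrays that varies with signal strength, as it does between these arrays. Base pairing was predicted with RNAduplex (ViennaRNA 2.7.2). Edits are substitutions, insertions and deletions over the whole target.

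No test between groups was possible, and the number of arrays limits the precision. Other settings tried were offsets of 16 and 200 for normexp, uncorrected intensities, median scaling over probes detected on both arrays, scaling on the calibration spots named PM or 3P (15 types above threshold), loess (span 0.4), no normalization, other detection limits, thresholds of 1.5-fold and 3-fold, the deposited table (log2 after adding 1 or 50), and single repeat spots. The members, lists and rules were chosen with earlier results of these data known. Named were all miR-210 probes, the probes nearest in signal to bfl-miR-210-3p (3 of any species and 3 of amphioxus), those sharing a seed or within 6 edits, and listed hypoxia miRNAs past the threshold.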

Additional observations from a re-analysis of the deposited data

How the results depend on the processing

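No paired analysis was possible because each group has 1 array. The count of 3 miR-210 probes higher and 0 lower became 0 higher with loess and with a threshold of 3-fold, 0 higher and 1 lower with no normalization, 6 higher with a threshold of 1.5-fold, and 6 and 5 higher in the deposited table after adding 1 or 50. With median scaling and with calibration spots it was 2, namely the 5p probes in place of the 3p probes. The median log2 difference of the detected miR-210 probes (0.87) was 1.10 with an offset of 16, 0.75 with an offset of 200, 0.71 with calibration spots, 0.34 with loess, -0.18 with no normalization, 1.10 with local empty spots as background, and 1.61 and 1.29 in the deposited table after adding 1 or 50. With no normalization bfl-miR-210-3p (-0.18), dre-miR-210-3p (-0.18) and pma-miR-210 (-0.13) changed sign.

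The gap between spu-miR-210 and the bfl, dre and pma probes (-1.43) was -1.14 with median scaling, calibration spots or none and -1.04 with loess. Leaving out a repeat spot gave -1.51 to -1.35, and bfl-miR-210-5p and bbe-miR-210-3p were above 0 in all 12 alternatives, bbe-miR-210-3p down to 0.32.

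Over all probes, 72 were higher and 72 lower. Higher counts were 314 with median scaling, 177 with calibration spots, 30 with loess, 44 with an offset of 200, 110 at 1.5-fold and 18 at 3-fold, and lower ones 125 at 1.5-fold, 45 at 3-fold and 42 when detection on both arrays was required. No normalization gave 25 higher and 128 lower, and the deposited table gave 161 higher and 289 lower after adding 1 and 111 higher after adding 50. Perfectly matched calibration spots ranged from 0.162 to 0.993 of their control signal on the LPS array (median 0.737), so they do not fix the scale.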
